A study of Mus musculus with 8 samples.

Results

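The postsynaptic scaffold genes of the Dlg, Shank and Homer families were followed in the cerebral cortex of male mice of a strain that ages early, SAMP8 (senescence-accelerated mouse prone), and of its senescence-resistant control, SAMR1. Members were the probe sets whose gene symbol was Dlg1, Dlg2, Dlg3, Dlg4, Shank1, Shank2, Shank3, Homer1, Homer2 or Homer3. This gave 21 probe sets of 9 of the 10 genes, among 45037 probe sets (19785 gene symbols) tested. Shank2 was not analysed here. Homer1 had 6 probe sets, Dlg2, Dlg4 and Homer2 had 3 each, Dlg1 had 2, and Dlg3, Shank1, Shank3 and Homer3 had 1 each. A probe set is a group of short probes that read one stretch of a transcript, so probe sets of 1 gene are described apart. The 8 arrays, each on total RNA of cortex from untreated mice, fell into 4 groups of 2: SAMP8 at 1 year, SAMP8 at 16 weeks, SAMR1 at 1 year and SAMR1 at 16 weeks. The methods give 2 mice at each age, without saying whether in each strain, and do not say which mouse each array measured, so each p-value rests on array-to-array spread, which may be technical. SAMP8 is an inbred strain set against another inbred strain, and no single gene separates them.

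The postsynaptic density is the protein layer under the membrane of an excitatory synapse. Dlg proteins (membrane-associated guanylate kinases, of which Dlg4 is PSD-95) lie next to the membrane and hold NMDA and AMPA receptor complexes. Shank proteins form a deeper layer and are tied to the Dlg proteins by the Dlgap linkers. Homer proteins bind Shank, group I metabotropic glutamate receptors and the inositol trisphosphate receptor, and so couple receptors at the membrane to calcium stores. Homer1 also gives a short form, Homer1a, which is induced by neuronal activity and lacks the part through which the long forms join each other. Which Homer1 form each probe set reads is not given in the sources used here.

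Values are log2 RMA signals, in which a difference of 1 is a doubling. A probe set was called when its limma p, adjusted by Benjamini-Hochberg over all 45037 probe sets, was under 0.05. The array medians lay between 4.32 and 4.36. The 9 cortical excitatory neuron markers averaged 7.80 to 8.08 on the 8 arrays and the 5 pan-neuronal markers 9.95 to 10.19, and the lowest value of the deep-layer cortical marker Fezf2 was 5.62. Markers of neighbouring tissue differed between arrays. The 6 striatum markers averaged 6.64 on SAMR1 16 weeks replicate 1 and 7.65 to 7.91 on the other arrays, and the 5 thalamus markers 6.94 on that array and 6.03 to 6.40 on the others. The 6 hypothalamus markers averaged 4.79 and 4.73 on the SAMR1 16 weeks arrays and 3.84 to 4.01 elsewhere. Pmch (7.21 and 4.93) and Avp (4.96 and 6.53) carried this average, while Oxt, Hcrt, Pomc and Agrp did not separate these arrays from the rest. The 5 olfactory bulb markers averaged 4.56 on SAMP8 1 year replicate 2 and 4.54 on SAMP8 16 weeks replicate 1, against 3.62 to 3.78 on the others. The 5 choroid plexus markers averaged 4.33 to 4.44 on both SAMP8 16 weeks arrays and SAMR1 16 weeks replicate 2, and 5.06 to 5.67 on the other 5 arrays. The part of these marker differences in the results was not tested. Counts of called members in the aging comparisons, and differences at called Homer1, Dlg1 and Dlg2 probe sets, are given below without some single arrays. Values of other genes rest on all 8 arrays. The 2 SAMR1 16 weeks arrays, both with the higher hypothalamus average, were not left out together.

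Across the comparisons, 8 of the 21 probe sets, of the 3 genes Dlg1, Dlg2 and Homer1, were called at least once, and 13 were never called. In accelerated aging (SAMP8 at 1 year against SAMP8 at 16 weeks) 4 of the 21 members (19.0%) were called, against 5.07% of all probe sets, and 1 of them rose (2.26% of all) and 3 fell (2.8% of all). In physiological aging (SAMR1 at 1 year against SAMR1 at 16 weeks) 6 of the 21 members (28.6%) were called, against 5.48% of all probe sets, and 5 of them rose (2.63% of all) and 1 fell (2.85% of all). In early events (SAMP8 against SAMR1 at 16 weeks) 1 member was called, higher in SAMP8 (4.76% of the members, against 1.23% of all in either direction and 0.708% higher). In late events (SAMP8 against SAMR1 at 1 year) no member was called by limma (0.688% of all), with 5 at an unadjusted p under 0.05. At the study's own threshold, an unadjusted p under 0.05 with a linear fold above 1.1, accelerated aging had 9 members (23.1% of all probe sets passed) and physiological aging 11 (23.5%), while early events had 7 (14%) and late events 5 (7.57%). Regardless of sign, members differed by a median of 0.17 in accelerated aging (0.10 over all probe sets) and of 0.27 in physiological aging (0.10). Between the strains this median was 0.09 at 1 year (0.06 over all) and 0.13 at 16 weeks (0.08). Homer1 and Dlg2 supplied all but 1 of the called probe sets, and probe sets of 1 gene read the same RNA, so these shares do not count separate genes. Signal strength also differed: 16 of the members averaged at least 5, and among the 17854 probe sets at or above that level 8.79% were called in accelerated aging and 9.58% in physiological aging, against 25.0% and 37.5% of those 16 members.

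**Figure D1:**
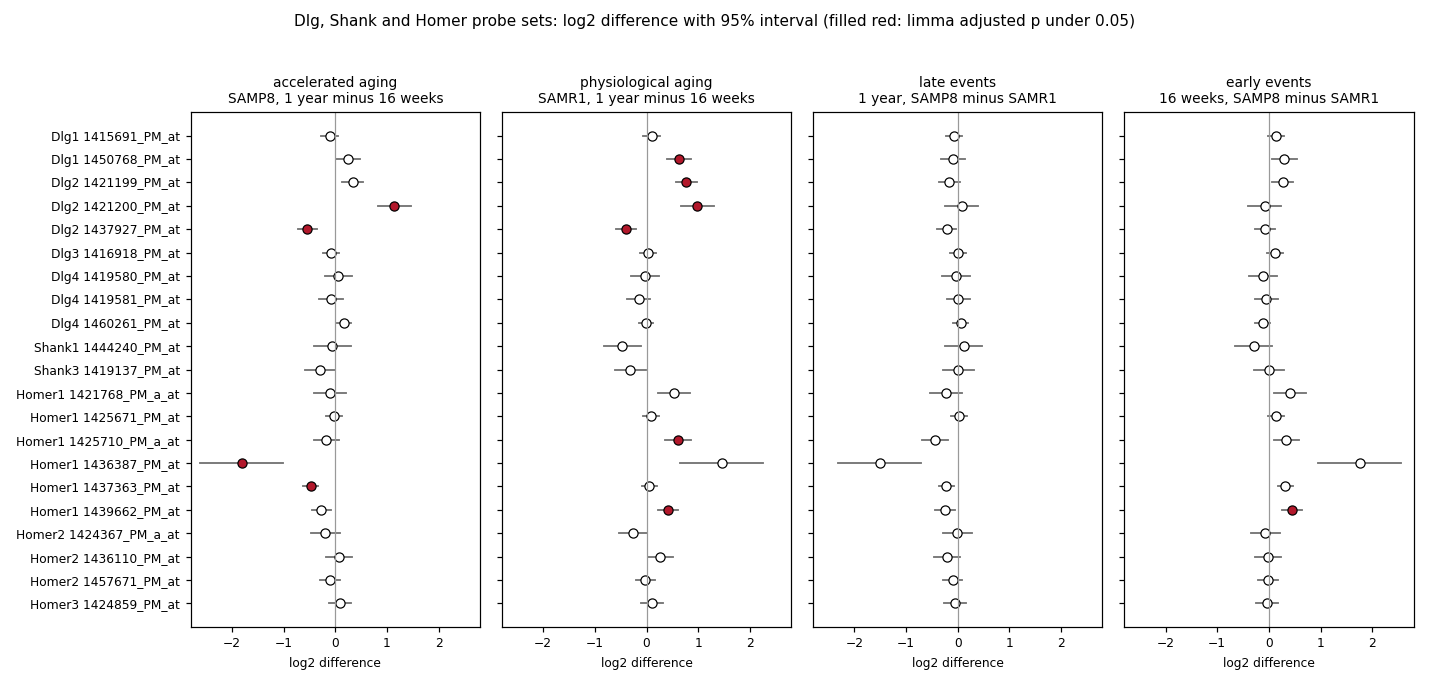
Log2 difference (horizontal axis) of each of the 21 Dlg, Shank and Homer probe sets (rows) in the 4 comparisons, with the 95% interval as a line and called probe sets filled red. Homer1 1436387_PM_at lies farthest from 0 in all 4 panels, at -1.82 in accelerated aging and 1.46 in physiological aging, and the 3 Dlg2 probe sets lie on both sides of 0 in both aging comparisons.

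Homer1 signals were lower with age in SAMP8 and higher with age in SAMR1. All 6 of its probe sets were lower in SAMP8 at 1 year than in SAMP8 at 16 weeks, by 0.02 to 1.82 on the log2 scale (4 of them with no overlap between the arrays, as in 26.9% of all probe sets), and all 6 were higher in SAMR1 at 1 year than in SAMR1 at 16 weeks, by 0.06 to 1.46 (all with no overlap, as in 25% of all). Limma called 2 in each. The 6 include 1425671_PM_at, dim at 2.82 to 3.04. They read 1 gene on the same arrays, so their counts are not separate observations. At 16 weeks all 6 were higher in SAMP8 than in SAMR1, with no overlap between the arrays (18.4% of all probe sets did so). At 1 year 5 of the 6 were lower in SAMP8 than in SAMR1 with no overlap (19.5% of all).

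Homer1 1436387_PM_at had the widest range of any member. It measured 8.21 and 6.91 in SAMP8 at 1 year and 9.31 and 9.44 in SAMP8 at 16 weeks. In SAMR1 it measured 9.21 and 8.93 at 1 year and 7.36 and 7.87 at 16 weeks. The signal was thus high in young SAMP8 and old SAMR1 and low in old SAMP8 and young SAMR1, and the high and low groups did not overlap. In accelerated aging the signal fell by 1.82 ± 0.35 (SE), a 3.52-fold lower level (adjusted p = 0.0292). In physiological aging the difference was 1.46 ± 0.35 and just missed the threshold (adjusted p = 0.0508). The values were 1.76 ± 0.35 in early events (adjusted p = 0.0590) and -1.51 ± 0.35 in late events (adjusted p = 0.164). Of the 45037 probe sets, 10 (this one included) differed by as much as its 1.30 between the 2 SAMP8 1 year arrays, and replicate 2 was the lower. Without that array the accelerated aging difference was -1.17 (adjusted p = 0.0902), and it was also not called without either SAMP8 16 weeks array (adjusted p = 0.0878 and 0.123) or either SAMR1 1 year array (0.0590). Without SAMP8 1 year replicate 1 the signal fell by 2.47 and was called, and late events then reached -2.16 (adjusted p = 0.00869). With either SAMP8 1 year array left out, the other is taken to vary like the other groups and the gap of 1.30 no longer enters the estimate of spread, so these p-values leave out the largest spread measured at this probe set. Without either SAMP8 1 year array the differences in physiological aging and early events stayed at 1.46 and 1.76. The early events difference was 1.505 without SAMR1 16 weeks replicate 1 and 2.015 without replicate 2.

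Homer1 1437363_PM_at, the Homer1 probe set of highest mean signal, held the same order of groups over a smaller range. It measured 8.98 and 8.93 in SAMP8 at 1 year, 9.39 and 9.48 in SAMP8 at 16 weeks, 9.17 and 9.18 in SAMR1 at 1 year, and 9.10 and 9.14 in SAMR1 at 16 weeks. Old SAMP8 arrays were lowest and young SAMP8 arrays highest, with both SAMR1 groups between them. The signal fell by 0.48 ± 0.06 in accelerated aging (adjusted p = 0.0142), a call lost without either SAMP8 1 year array (adjusted p = 0.0933 and 0.0972) or SAMP8 16 weeks replicate 2 (0.0656). The difference was 0.06 ± 0.06 in physiological aging (adjusted p = 0.654), with a 95% interval of -0.09 to 0.20. Young SAMP8 stood 0.32 ± 0.06 above young SAMR1 (adjusted p = 0.0593).

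Homer1 1439662_PM_at was the member called in early events. It measured 8.58 and 8.58 in SAMP8 at 16 weeks, against 8.06 and 8.21 in SAMR1 at 16 weeks, and 8.41 and 8.21 in SAMP8 at 1 year, against 8.55 and 8.56 in SAMR1 at 1 year. The young SAMR1 arrays were the lowest of the 4 groups, reaching the level of 1 old SAMP8 array. The signal was higher in young SAMP8 by 0.45 ± 0.08 (adjusted p = 0.0475) and rose by 0.42 ± 0.08 in physiological aging (adjusted p = 0.0290). In accelerated aging the difference was -0.27 ± 0.08 (adjusted p = 0.0985). Left out 1 array at a time, the call in early events held only without SAMR1 16 weeks replicate 2, with adjusted p otherwise up to 0.187, and without SAMR1 16 weeks replicate 1 the differences were 0.37 in early events (adjusted p = 0.154) and 0.35 (adjusted p = 0.0820) in physiological aging.

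Homer1 1425710_PM_a_at and 1421768_PM_a_at were highest in old SAMR1. The first measured 6.53 and 6.33 in SAMP8 at 1 year and 6.67 and 6.54 in SAMP8 at 16 weeks. It measured 6.99 and 6.75 in SAMR1 at 1 year, against 6.35 and 6.18 in SAMR1 at 16 weeks, a rise of 0.61 ± 0.11 (adjusted p = 0.0218) that was not called without SAMR1 16 weeks replicate 2 (0.52, adjusted p = 0.0541). Old SAMP8 lay 0.44 ± 0.11 below old SAMR1 (adjusted p = 0.197). The second differed by 0.54 ± 0.14 in physiological aging (adjusted p = 0.0584) and ranged over the 8 arrays between 6.11 and 6.91. Homer1 1425671_PM_at was dim, at 2.82 to 3.04, and was called nowhere.

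**Figure D2:**
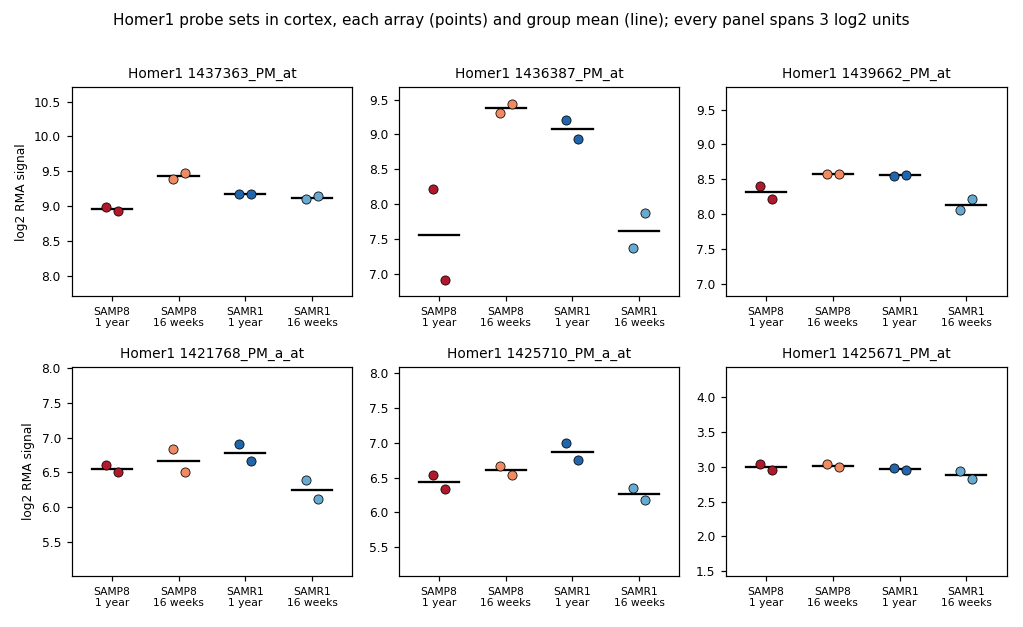
Log2 RMA signal (vertical axis, each panel spanning 3 units) of the 6 Homer1 probe sets on each array (points) with the group mean (line), in SAMP8 at 1 year and 16 weeks and SAMR1 at 1 year and 16 weeks. At 1436387_PM_at the group means were 7.56, 9.38, 9.07 and 7.62, and the 2 SAMP8 1 year points lie 1.30 apart.

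Because several Homer1 probe sets were called and Homer1a is an activity-induced transcript, the sequence before the gene's annotated starts is shown, taken from RefSeq on mouse build GRCm38.p6 (8 of the 10 genes matched, with 18 start sites). It was searched for the cyclic AMP response element TGACGTCA, through which CREB acts on activity-induced genes, and for its part TGACG on both strands (read as CGTCA on the other strand), which lies inside the full element. Each window holds the 250 bases before a start on the plus strand, 5′ to 3′, with TGACG or CGTCA in capitals:
Homer1 start 1, chr13:93303507-93303756: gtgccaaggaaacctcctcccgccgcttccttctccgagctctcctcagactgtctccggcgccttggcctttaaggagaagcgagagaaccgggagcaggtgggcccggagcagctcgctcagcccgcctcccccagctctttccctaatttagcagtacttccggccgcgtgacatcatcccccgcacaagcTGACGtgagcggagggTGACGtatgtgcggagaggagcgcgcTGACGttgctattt
Homer1 start 2, chr13:93307784-93308033: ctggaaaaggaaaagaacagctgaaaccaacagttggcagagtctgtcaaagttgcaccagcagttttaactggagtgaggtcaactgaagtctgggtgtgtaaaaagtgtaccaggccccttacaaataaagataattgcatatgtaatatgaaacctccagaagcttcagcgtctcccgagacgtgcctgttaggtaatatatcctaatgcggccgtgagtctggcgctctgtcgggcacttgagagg
The window of start 1 held TGACG 3 times and that of start 2 held none. Of 32851 windows of this length, 17.8% held TGACG on either strand at least once and 0.688% held it 3 or more times. Among the other members, 1 Dlg3 window and 1 Dlg4 window held it, so 3 of 18 windows did. None of the 18 held the full TGACGTCA, which 1.55% of all windows held. A match is a string of letters and not a measured site.

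Dlg2 (PSD-93, a Dlg protein of the postsynaptic density) changed with age in both strains, and its probe sets went opposite ways. Dlg2 1421200_PM_at measured 7.56 and 7.22 in SAMP8 at 1 year, against 6.32 and 6.18 in SAMP8 at 16 weeks. It measured 7.39 and 7.23 in SAMR1 at 1 year, against 6.16 and 6.50 in SAMR1 at 16 weeks. Every 1 year array lay above every 16 weeks array, and within an age the strains overlapped. The rise was 1.14 ± 0.14 in accelerated aging (2.20-fold, adjusted p = 0.0126) and 0.98 ± 0.14 in physiological aging (1.97-fold, adjusted p = 0.0127). The strain comparisons gave 0.08 ± 0.14 at 1 year (95% interval -0.24 to 0.40) and -0.08 ± 0.14 at 16 weeks (-0.40 to 0.24).

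Dlg2 1421199_PM_at rose in SAMR1. It measured 6.06 and 5.85 in SAMP8 at 1 year, against 5.61 and 5.62 in SAMP8 at 16 weeks, and 6.19 and 6.04 in SAMR1 at 1 year, against 5.29 and 5.40 in SAMR1 at 16 weeks. Both old groups stood above both young groups. The rise in physiological aging was 0.77 ± 0.09 (adjusted p = 0.00822), the smallest adjusted p of any member, and the difference in accelerated aging was 0.34 ± 0.09 (adjusted p = 0.0640).

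Dlg2 1437927_PM_at, the Dlg2 probe set of highest mean signal, fell in both strains. It measured 8.55 and 8.47 in SAMP8 at 1 year, against 8.96 and 9.14 in SAMP8 at 16 weeks, and 8.79 and 8.66 in SAMR1 at 1 year, against 9.08 and 9.17 in SAMR1 at 16 weeks. No 1 year array reached a 16 weeks array. The signal fell by 0.54 ± 0.08 in accelerated aging (adjusted p = 0.0188) and by 0.40 ± 0.08 in physiological aging (adjusted p = 0.0341). Genes with probe sets called in both directions numbered 33 of the 156 genes with several called probe sets in accelerated aging (21.2%) and 29 of 193 in physiological aging (15%), and Dlg2 was among them in both. RefSeq placed 3 Dlg2 starts in the windows searched, and which transcript each probe set reads was not analysed here. The accelerated aging calls of 1421200_PM_at and 1437927_PM_at were lost without either SAMP8 1 year array or SAMP8 16 weeks replicate 2 (adjusted p = 0.0676 to 0.118), and the physiological aging call of 1437927_PM_at also without SAMR1 16 weeks replicate 2 (0.0858) or either SAMP8 1 year array (0.0625).

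Dlg1, a Dlg protein that also carries AMPA receptors toward the membrane, rose at 1 of its 2 probe sets. Dlg1 1450768_PM_at measured 7.79 and 7.72 in SAMP8 at 1 year, against 7.44 and 7.58 in SAMP8 at 16 weeks, and 7.85 and 7.83 in SAMR1 at 1 year, against 7.05 and 7.37 in SAMR1 at 16 weeks. The young SAMR1 arrays were the lowest, and the 4 groups did not overlap. The rise in physiological aging was 0.63 ± 0.10 (adjusted p = 0.0176), and the difference in accelerated aging was 0.25 ± 0.10 (adjusted p = 0.201). In early events it was 0.30 ± 0.10 (adjusted p = 0.245), with 0.14 without SAMR1 16 weeks replicate 1 and 0.46 without replicate 2. Dlg1 1415691_PM_at, the brighter one, measured 9.23 and 9.25 in SAMP8 at 1 year, 9.30 and 9.40 in SAMP8 at 16 weeks, 9.31 and 9.31 in SAMR1 at 1 year, and 9.14 and 9.28 in SAMR1 at 16 weeks, with no call.

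Dlg3 and Dlg4 were called in no comparison by limma, with 1 Dlg4 probe set at an unadjusted p under 0.05 in accelerated aging. Dlg4 1419580_PM_at, the brightest of 3, measured 9.02 and 9.03 in SAMP8 at 1 year, 9.04 and 8.89 in SAMP8 at 16 weeks, 9.10 and 9.02 in SAMR1 at 1 year, and 8.89 and 9.28 in SAMR1 at 16 weeks. All 4 groups shared 1 range, and the 2 young SAMR1 arrays spanned it. The accelerated aging difference was 0.06 (95% interval -0.21 to 0.33) and the physiological aging difference was -0.03 (-0.29 to 0.24). Dlg4 1419581_PM_at ranged between 8.12 and 8.44. Dlg4 1460261_PM_at was dim, at 3.87 to 4.06, with a difference of 0.17 ± 0.06 in accelerated aging (adjusted p = 0.149). Dlg3 1416918_PM_at measured 8.14 and 8.11 in SAMP8 at 1 year, 8.28 and 8.13 in SAMP8 at 16 weeks, 8.11 and 8.12 in SAMR1 at 1 year, and 8.09 and 8.07 in SAMR1 at 16 weeks, and its differences in the 4 comparisons lay between -0.08 and 0.13.

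**Figure D3:**
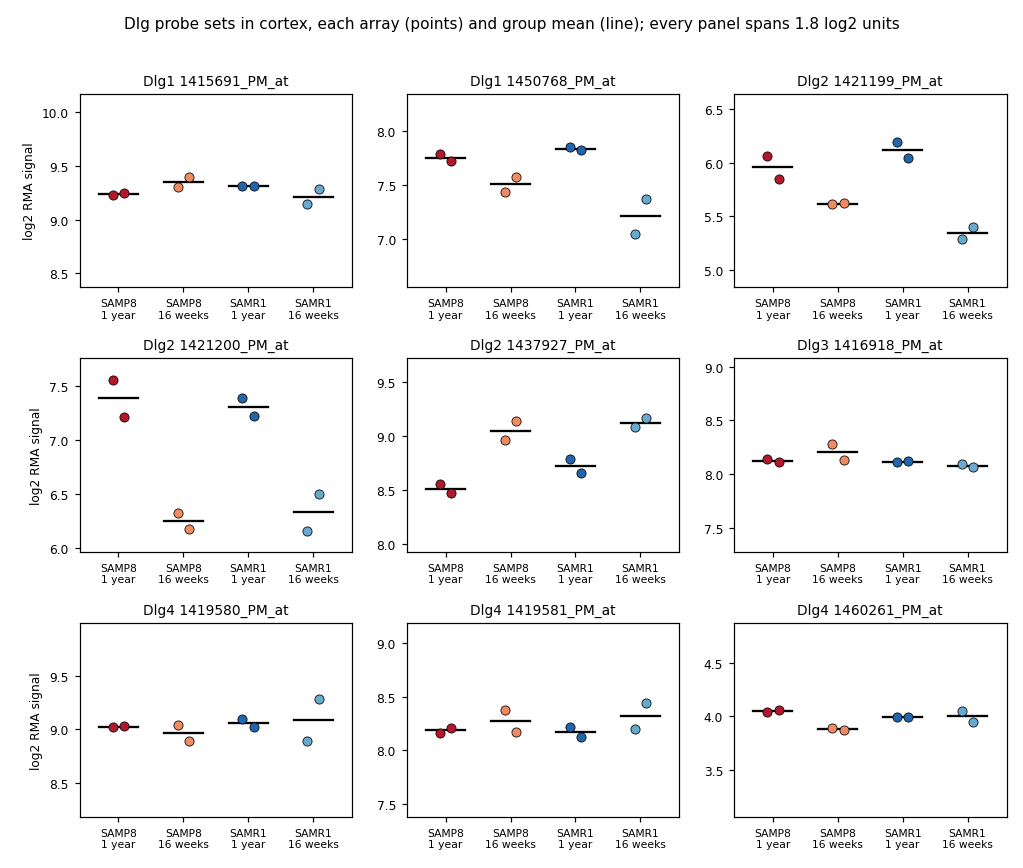
Log2 RMA signal (vertical axis, each panel spanning 1.8 units) of the 9 Dlg probe sets on each array (points) with the group mean (line), in the 4 groups. At Dlg2 1421200_PM_at the 1 year means were 7.39 in SAMP8 and 7.31 in SAMR1 and the 16 weeks means 6.25 and 6.33, while at Dlg2 1437927_PM_at the 1 year means were the lower ones.

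The Shank genes were called in no comparison by limma, though Shank3 had an unadjusted p under 0.05 in both aging comparisons and Shank1 in physiological aging. Shank3 1419137_PM_at measured 7.75 and 7.59 in SAMP8 at 1 year, against 7.86 and 8.07 in SAMP8 at 16 weeks, and 7.75 and 7.56 in SAMR1 at 1 year, against 7.79 and 8.14 in SAMR1 at 16 weeks. The old arrays of both strains lay below the young ones without overlap, with 7.75 and 7.79 the nearest values. In accelerated aging 26.9% of all probe sets fell without overlap. An unadjusted limma p under 0.05 was reached by 23.2% of all probe sets in accelerated aging and by 23.5% in physiological aging. The differences were -0.30 ± 0.13 in accelerated aging (adjusted p = 0.215) and -0.31 ± 0.13 in physiological aging (adjusted p = 0.193), and the strains differed by 0.02 ± 0.13 at 1 year and 0.00 ± 0.13 at 16 weeks. Shank1 1444240_PM_at was dim. It measured 3.32 and 3.35 in SAMP8 at 1 year, 3.51 and 3.28 in SAMP8 at 16 weeks, 3.25 and 3.19 in SAMR1 at 1 year, and 3.96 and 3.41 in SAMR1 at 16 weeks. Its highest value was on the array with the high thalamus and low striatum markers, and the physiological aging difference was -0.47 ± 0.16 (adjusted p = 0.118).

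Homer2 and Homer3, the other members of the Homer family, were called nowhere by limma. In physiological aging 1 Homer2 probe set, the dim 1436110_PM_at, had an unadjusted p under 0.05. Its signal was higher at 1 year, by 0.27 ± 0.11 (adjusted p = 0.183). Homer2 1424367_PM_a_at measured 6.90 and 7.08 in SAMP8 at 1 year, 7.36 and 7.01 in SAMP8 at 16 weeks, 7.07 and 6.92 in SAMR1 at 1 year, and 7.32 and 7.19 in SAMR1 at 16 weeks. Both old groups averaged below both young groups, with differences of -0.20 ± 0.12 in accelerated aging (adjusted p = 0.380) and -0.26 ± 0.12 in physiological aging (adjusted p = 0.239). Homer2 1457671_PM_at ranged between 6.88 and 7.12 and the dim Homer2 1436110_PM_at between 3.72 and 4.18. Homer3 1424859_PM_at was dim too. It measured 3.73 and 3.74 in SAMP8 at 1 year, 3.68 and 3.61 in SAMP8 at 16 weeks, 3.89 and 3.68 in SAMR1 at 1 year, and 3.79 and 3.57 in SAMR1 at 16 weeks.

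**Figure D4:**
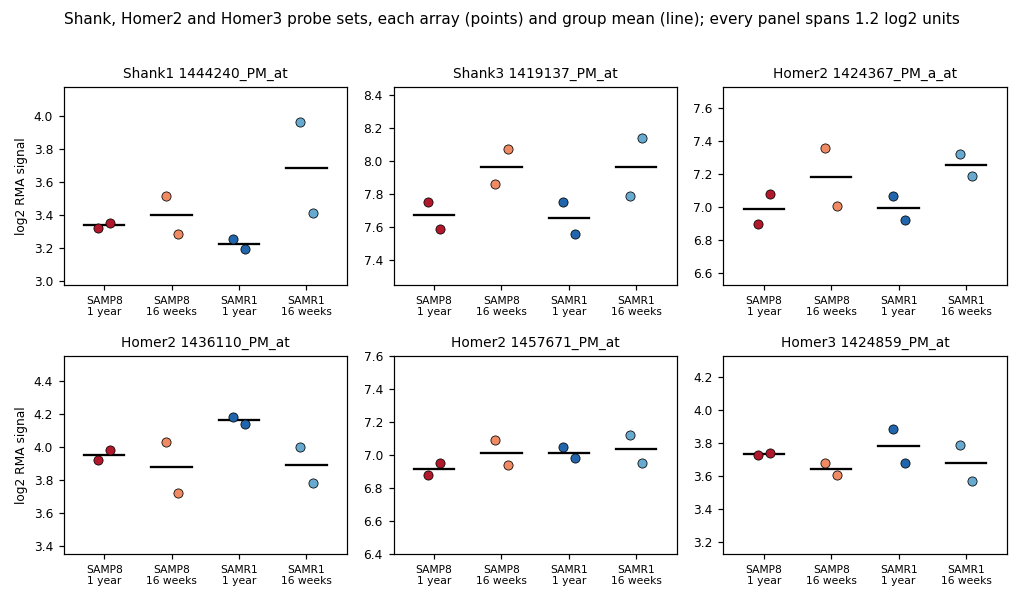
Log2 RMA signal (vertical axis, each panel spanning 1.2 units) of the Shank1, Shank3, Homer2 and Homer3 probe sets on each array (points) with the group mean (line), in the 4 groups. At Shank3 1419137_PM_at the means were 7.67 in SAMP8 at 1 year, 7.97 in SAMP8 at 16 weeks, 7.66 in SAMR1 at 1 year and 7.97 in SAMR1 at 16 weeks.

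The strain difference in the age effect (accelerated aging minus physiological aging) was tested as the interaction in the same limma fit. No member passed (1 of 45037 probe sets did, 0.00222%), while 7 members (33.3%) had an unadjusted p under 0.05, as did 3116 of all probe sets (6.92%). The interaction at Homer1 1436387_PM_at was -3.27 ± 0.50 (adjusted p = 0.185), at 1439662_PM_at -0.69 ± 0.12 (adjusted p = 0.245), at 1437363_PM_at -0.54 ± 0.09 (adjusted p = 0.245) and at 1425710_PM_a_at -0.78 ± 0.15 (adjusted p = 0.309). Without SAMP8 1 year replicate 1 the value at 1436387_PM_at was -3.92 (adjusted p = 0.00722), in a fit where the old SAMP8 group was 1 array with no spread of its own. At Dlg2 1421199_PM_at it was -0.43 ± 0.13 (adjusted p = 0.506) and at Dlg1 1450768_PM_at -0.39 ± 0.15 (adjusted p = 0.665). The opposite age differences of Homer1 were therefore seen on the arrays but did not pass the test of their difference over all probe sets. The comparisons share groups, so that a high young SAMP8 signal enters accelerated aging and early events alike.

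The calls in the aging comparisons rested largely on having both arrays of the 1 year group. Without SAMR1 1 year replicate 1 or replicate 2 no member was called in physiological aging, when 19 and 74 of all probe sets were. In accelerated aging 1 member (Homer1 1436387_PM_at) was called without SAMP8 1 year replicate 1, none without SAMP8 1 year replicate 2 and none without SAMP8 16 weeks replicate 2, when 21, 5 and 23 of all probe sets were. A fit without 1 array leaves the other array of its group with no spread of its own. Without SAMR1 16 weeks replicate 1, the array of low striatum markers, the physiological aging differences were 0.47 at Dlg1 1450768_PM_at, 0.81 at Dlg2 1421200_PM_at and 0.715 at Dlg2 1421199_PM_at. They were 0.345 at Homer1 1439662_PM_at, 0.69 at Homer1 1425710_PM_a_at and -0.445 at Dlg2 1437927_PM_at. Without replicate 2 the first 3 were 0.79, 1.15 and 0.825. Without SAMP8 16 weeks replicate 1, an array of higher olfactory bulb markers, the accelerated aging differences were 1.21 at Dlg2 1421200_PM_at and -0.63 at Dlg2 1437927_PM_at. They were -1.88 at Homer1 1436387_PM_at and -0.525 at Homer1 1437363_PM_at. In early events the called difference, at Homer1 1439662_PM_at, was 0.37 without SAMR1 16 weeks replicate 1 and 0.52 without replicate 2. It was 0.445 without either SAMP8 16 weeks array.

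Other genes of the postsynaptic density were read beside the scaffolds, as 132 probe sets of 46 genes. Of these, 10 (7.58%) were called in accelerated aging (3 rose, 7 fell), against 5.07% of all probe sets, and 15 (11.4%) in physiological aging (9 rose, 6 fell), against 5.48%. In early events 3 (2.27%, against 1.23% of all) were called, 2 higher and 1 lower in SAMP8, and in late events 3 (2.27%, against 0.688%), 2 higher and 1 lower. Among the adhesion proteins that face the synaptic cleft, Lrrtm2 1456637_PM_at, a partner of neurexins that binds Dlg4, measured 6.88 and 6.69 in SAMP8 at 1 year, against 6.01 and 5.63 in SAMP8 at 16 weeks. In SAMR1 it measured 7.23 and 7.19 at 1 year and 5.78 and 5.56 at 16 weeks. The old arrays were all above the young ones, and the rise was 0.97 ± 0.13 in accelerated aging (adjusted p = 0.0142) and 1.54 ± 0.13 in physiological aging (adjusted p = 0.00434). Lrrtm2 1455489_PM_at was called in physiological aging only, with a rise of 0.65 (adjusted p = 0.0104), and Lrrtm2 1437787_PM_at in no comparison. Lrrc4 1435832_PM_at, of an adhesion protein that also binds Dlg4, measured 4.82 and 4.73 in SAMP8 at 1 year, against 5.60 and 5.65 in SAMP8 at 16 weeks, and 5.30 and 5.16 in SAMR1 at 1 year, against 5.75 and 5.82 in SAMR1 at 16 weeks. It fell by 0.85 ± 0.07 in accelerated aging (adjusted p = 0.00553) and by 0.56 ± 0.07 in physiological aging (adjusted p = 0.0104), and was lower in SAMP8 by 0.46 at 1 year (adjusted p = 0.0332). The other Lrrc4 probe set, 1416097_PM_at, was not called, with differences of -0.30 in accelerated aging (adjusted p = 0.0841) and -0.23 in physiological aging (adjusted p = 0.164).

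Of the receptors, 4 of 14 NMDA receptor probe sets (28.6%, against 5.48% of all) were called in physiological aging, where 2 rose and 2 fell. None was called by limma in accelerated aging (5.07% of all) or in the strain comparisons. None passed the interaction test in limma (2 of 14, or 14.3%, at an unadjusted p under 0.05, against 6.92% of all). Grin2a 1447385_PM_at rose by 0.63 in physiological aging, and Grin3a 1438866_PM_at fell by 0.74. The other probe sets of Grin2a and Grin3a were called in no comparison. Cacng8 1451864_PM_at, of an auxiliary AMPA receptor subunit that binds Dlg4, fell by 0.65 in accelerated aging (adjusted p = 0.0119) and by 0.62 in physiological aging (adjusted p = 0.00930), at a dim signal of 3.65 to 4.51. Cacng8 1459579_PM_at was not called, at -0.07 (adjusted p = 0.591) and 0.09 (adjusted p = 0.474). Camk2a 1442707_PM_at, of the kinase that phosphorylates synaptic receptors, fell by 0.63 in accelerated aging (adjusted p = 0.0171) and by 0.58 in physiological aging (adjusted p = 0.0164), while Camk2a 1437125_PM_at was lower in young SAMP8 by 0.55 (adjusted p = 0.0404). With age Camk2a 1437125_PM_at went the other way, without a call. It measured 9.88 and 9.74 in SAMP8 at 1 year, against 9.46 and 9.37 at 16 weeks, and 10.19 and 10.08 in SAMR1 at 1 year, against 10.09 and 9.83 at 16 weeks. The brightest Camk2a probe set, 1457311_PM_at, was lower at 1 year in both strains, also without a call. None of the 4 probe sets of the group I metabotropic receptors, which bind Homer, was called in any comparison by limma (1 in physiological aging and 1 in late events at an unadjusted p under 0.05). Itpr1 1417279_PM_at, the inositol trisphosphate receptor that Homer binds, measured 9.16 and 9.20 in SAMR1 at 1 year, against 8.19 and 8.72 in SAMR1 at 16 weeks, and rose by 0.73 ± 0.15 (adjusted p = 0.0311). Itpr1 1460203_PM_at was called in no comparison.

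The strain comparisons were led by Cask, a membrane-associated guanylate kinase of both sides of the synapse. Cask 1422519_PM_at measured 7.12 and 7.18 in SAMP8 at 1 year, against 6.48 and 6.54 in SAMR1 at 1 year, and 6.95 and 6.94 in SAMP8 at 16 weeks, against 6.09 and 6.21 in SAMR1 at 16 weeks. All SAMP8 arrays stood above all SAMR1 arrays. It was higher in SAMP8 by 0.64 ± 0.07 in late events (adjusted p = 0.00392) and by 0.80 ± 0.07 in early events (adjusted p = 0.00116). Cask 1422518_PM_at gave 0.55 in late events and 0.59 in early events, both called. The other Cask probe sets, 1427692_PM_a_at and 1455406_PM_at, were called in no comparison. Of the 11 probe sets of the Dlgap linkers that tie Dlg to Shank, Dlgap4 1426465_PM_at fell by 0.38 in accelerated aging (adjusted p = 0.0209) and Dlgap2 1439767_PM_at rose by 0.44 in physiological aging (adjusted p = 0.0231).

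Since the short form Homer1a is induced by neuronal activity, 17 other activity-regulated genes (28 probe sets) were read on the same arrays. Whether any Homer1 probe set reads that form was not assigned. Limma called 5 of the 28 in late events, all higher in SAMP8 (17.9%, against 0.688% of all probe sets), and 4 in accelerated aging, of which 1 rose and 3 fell (14.3%, against 5.07%). It called 2 in physiological aging, of which 1 rose and 1 fell (7.14%, against 5.48%), and 1 in early events, higher in SAMP8 (3.57%, against 1.23%). Fos 1423100_PM_at, an immediate early transcription factor, measured 8.88 and 9.41 in SAMP8 at 1 year, against 7.90 and 7.92 in SAMR1 at 1 year (1.24 ± 0.16 in late events, adjusted p = 0.0111). Arc 1418687_PM_at, whose protein acts on AMPA receptors at the synapse, measured 8.07 and 8.27 in SAMP8 at 1 year, against 7.15 and 7.03 in SAMR1 at 1 year (1.08 ± 0.16, adjusted p = 0.0236). Arc was also high in SAMP8 at 16 weeks, at 8.22 and 8.50, against 7.44 and 7.94 in SAMR1 (0.67 in early events, adjusted p = 0.107). Nr4a1, Dusp1 and Btg2 1416250_PM_at were also higher in old SAMP8 by 1.01, 1.05 and 1.55. At 1 year these transcripts were thus higher in SAMP8, where Homer1 1436387_PM_at was the lower. Between the 2 old SAMP8 arrays the activity-regulated genes did not share an order. Homer1 1436387_PM_at measured 8.21 on replicate 1 and 6.91 on replicate 2. Npas4 1459372_PM_at, a neuronal immediate early gene not called in late events (adjusted p = 0.101), measured 5.11 and 6.27. Bdnf 1422168_PM_a_at measured 5.77 and 5.43, and Nr4a3 1438796_PM_at 7.28 and 7.07, both lower on replicate 2 as Homer1 was.

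In accelerated aging, probe sets of Ptgs2, Bdnf and Nptx2 were called lower, as Homer1 was. Ptgs2 1417262_PM_at, the inducible cyclooxygenase, measured 5.30 and 5.28 in SAMP8 at 1 year, against 6.31 and 6.23 in SAMP8 at 16 weeks, and fell by 0.98 ± 0.14 (adjusted p = 0.0169). Bdnf 1422168_PM_a_at, of the neurotrophin, measured 5.77 and 5.43 in SAMP8 at 1 year, against 6.62 and 6.41 in SAMP8 at 16 weeks, and fell by 0.92 ± 0.17 (adjusted p = 0.0275). Nptx2 1420720_PM_at, a secreted pentraxin that gathers AMPA receptors, measured 5.97 and 6.03 in SAMP8 at 1 year, against 6.74 and 6.97 in SAMP8 at 16 weeks, and fell by 0.86 ± 0.13 (adjusted p = 0.0183). In SAMR1 the differences of these probe sets with age were 0.19 for Ptgs2 (adjusted p = 0.473), 0.14 for Bdnf (adjusted p = 0.680) and -0.03 for Nptx2 (adjusted p = 0.934), none called. Bdnf 1422169_PM_a_at differed by -0.20 in accelerated aging (adjusted p = 0.256) and rose in physiological aging by 0.45 ± 0.09 (adjusted p = 0.0348), with 6.48 and 6.39 in SAMR1 at 1 year, against 6.01 and 5.97 in SAMR1 at 16 weeks. Ptgs2 1417263_PM_at, the probe set called in early events, differed by -0.275 in accelerated aging and 0.305 in physiological aging. Nr4a3 1438796_PM_at differed by -0.37 and 0.34. None of these age differences of Ptgs2 1417263_PM_at and Nr4a3 was called. Olfactory bulb markers were raised on SAMP8 1 year replicate 2, where Fos and Npas4 were highest, and on SAMP8 16 weeks replicate 1, where they measured 8.53 and 5.37, and the part of those markers in these values was not tested.

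**Figure D5:**
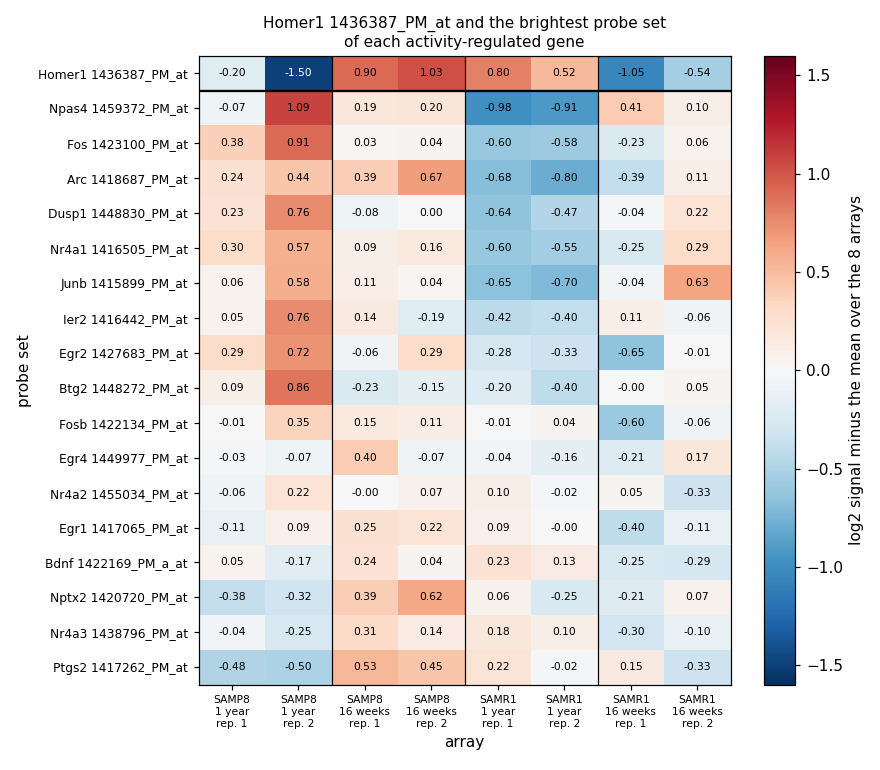
Log2 signal minus the mean over the 8 arrays (colour and printed value) of Homer1 1436387_PM_at and of the brightest probe set of each of the 17 activity-regulated genes (rows, ordered by their late events difference) on each array (columns). Fos is high in old SAMP8 and low in old SAMR1, and Arc is high in SAMP8 at both ages and low in old SAMR1. Ptgs2 and Nptx2 are higher in young than in old SAMP8, as Homer1 is.

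The probe sets most like a member over the 8 arrays were named for the member of smallest p in each family, by Pearson's r as a description, since the 8 values are 4 groups of 2 and the 2 probe sets compared share each array. Homer1 1437363_PM_at lay closest to Cobl (r = 0.983), Plxna2 (0.979) and Mettl3 (0.966). Dlg2 1421199_PM_at lay closest to Cd80 (0.992), Msl1 (0.988) and Pde10a (0.988), a phosphodiesterase of striatal neurons that measured 5.60 and 5.34 in SAMP8 at 1 year, 4.94 and 4.72 in SAMP8 at 16 weeks, 5.84 and 5.59 in SAMR1 at 1 year, and 4.35 and 4.64 in SAMR1 at 16 weeks. The dim Shank1 probe set lay closest to Calca (0.980), Chst8 (0.979) and Nek6 (0.978), all of which were highest on SAMR1 16 weeks replicate 1.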

How the data were processed

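Total RNA of male SAMP8 and SAMR1 cerebral cortex was read on 8 mouse MG-430 PM arrays, 2 per group. The deposited values were log2 signals that the authors made with RMA (background correction, quantile normalization and probe summary), as the series' design text and the methods state (the file header gives log2). The submitters' processing notes also name limma and the Transcriptome Analysis Console. A second deposited table of log2 values held the same values (largest difference 0). The authors' comparison tables, with group means, fold changes, p-values and false discovery rates, were not used. Labelling kits are named differently in the sources, and the genotype label of the SAMP8 arrays reads SAMR8, so groups follow the sample titles.

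From the 45077 rows, 40 control probe sets were left out. A model of 4 group means was fitted to the 8 arrays with limma 3.58.1 in R 4.3.3 (lmFit and eBayes, 4 residual and 4.52 prior degrees of freedom), with Benjamini-Hochberg adjustment over 45037 probe sets and no filter on dim signals. Precision is limited by having 2 arrays a group. The fit was tested on simulated data. Values are given with the SE of the fit. Probe sets under a mean log2 signal of 5 are called dim. A symbol was read only where the file pairs a probe set with 1 gene (36173 probe sets, with 1236 naming several and 7628 none).

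Every member probe set was accounted for. Values on each array are given for those called in any comparison and for the brightest of each gene, and up to 4 other postsynaptic probe sets per comparison, by smallest p, were to be named. Grin2a, Grin3a, Itpr1, Dlgap2, Dlgap4 and the activity-regulated genes named in the text were picked after their values were seen. The members, lists and rules were chosen with earlier results of these data known, and Homer1 and Shank3 are also named by the study from these samples, as are Shank1 and Dlg4 in its gene lists, so their direction is not independent evidence. Alternatives were other variance models, array weights, scalings, a filter on dim probe sets, a replicate block, fewer arrays, the study's threshold (unadjusted p under 0.05 and linear fold above 1.1) and a one-way test on the arrays of each comparison. Same-numbered arrays did not deviate together (correlations of -0.09 to 0.20), so the numbers were not taken to pair arrays.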

Additional observations from a re-analysis of the deposited data

Results flagged for a closer look

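For 5 member probe sets both SAMP8 arrays moved one way with age and both SAMR1 arrays the other, without overlap, as did 1504 of all probe sets (3.34%). The difference between the strains was tested as the limma interaction (accelerated aging minus physiological aging) and passed for none of the 5. It was -3.27 at Homer1 1436387_PM_at (adjusted p = 0.185), -0.78 at Homer1 1425710_PM_a_at (adjusted p = 0.309), -0.69 at Homer1 1439662_PM_at (adjusted p = 0.245), -0.54 at Homer1 1437363_PM_at (adjusted p = 0.245) and -0.21 at Dlg1 1415691_PM_at (adjusted p = 0.755), where the age differences were -0.11 in SAMP8 and 0.10 in SAMR1.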

How the results depend on the processing

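The main counts of called members were 4 in accelerated aging, 6 in physiological aging, 1 in early events, 0 in late events and 0 for the interaction. At the study's threshold (without adjustment) they were 9, 11, 7 and 5, where 23.1%, 23.5%, 14.0% and 7.57% of all probe sets passed. A one-way test on the arrays of each comparison at that threshold gave 4 in accelerated aging, 5 in physiological aging, 4 (early) and 2 (late events). Of all probe sets, 5020, 4534, 2258 and 1973 passed there (11.1%, 10.1%, 5.01% and 4.38%). After Benjamini-Hochberg this test gave 0 members in accelerated aging, physiological aging and early events. Only 47, 71 and 53 of all probe sets then passed (0.104%, 0.158% and 0.118%), so these counts of 0 tell little about the members. With only the 4 arrays compared, physiological aging gave 0, when 0 of all probe sets were called. In early events, trend and robust eBayes gave 2, array weights 0 and quantile normalization 0, when 710, 274 and 524 of all probe sets were called. With the replicate number as a block, the counts were 4 in accelerated aging, 8 in physiological aging, 0 (early) and 1 (late events, Homer1 1425710_PM_a_at, adjusted p = 0.0284). Of all probe sets, 2508, 2699, 552 and 341 were then called in these comparisons. Leaving out 1 array at a time moved the counts of members and of all probe sets called, and left 1 array in the group it came from. The accelerated aging difference then ranged between -2.465 and -1.165 at Homer1 1436387_PM_at and between 0.97 and 1.31 at Dlg2 1421200_PM_at. In the same runs differences that were not called changed sign at Dlg2 1421200_PM_at (-0.25 to 0.09 in early events, -0.09 to 0.25 in late events, -0.01 to 0.33 for the interaction) and at Dlg2 1437927_PM_at (-0.165 to 0.015 in early events). Homer1 1436387_PM_at was not called in accelerated aging with trend and robust eBayes (adjusted p = 0.118) or with only 4 arrays (0.0580), and was called in physiological aging with a dim filter (0.0407), median centring (0.0497), quantile normalization (0.0495) or the replicate block (0.0481). The causes of these changes were not tested. Over all probe sets the counts were 2283, 2466, 554 and 310 in the 4 comparisons in this order, and array weights gave 274 in early events and 631 in late events. With 2 arrays a group, a difference that missed the threshold is not shown to be absent.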
